A study of Mus musculus with 6 samples.

Results

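The genes described here are 10 transcription factors of naive and core pluripotency in mouse embryonic stem cells, namely Pou5f1, Sox2, Nanog, Klf2, Klf4, Klf5, Esrrb, Tfcp2l1, Tbx3 and Zfp42. They were taken by name, with every transcript of each that had a value, which gave 29 transcripts of the 68473 in the table. GENCODE annotates 33 transcripts of the 10 genes, and 4 transcripts of Esrrb were not analysed here. A transcript was called outer-start when it began within 500 bases of the outermost annotated start of its gene, and internal-start otherwise. By that rule 19 transcripts were outer-start and 10 were internal-start. The 19 belong to 9 genes, and transcripts of a gene overlap, so counts over them are not counts of independent observations. Esrrb had internal-start transcripts only.

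The libraries came from C57BL/6 mouse embryonic stem cells of 3 kinds: a first Mettl3 knockout (KO1), a second Mettl3 knockout (KO2) and control cells, with 2 libraries each. METTL3, the product of the targeted gene, is the methyltransferase that places N6-methyladenosine on nascent RNA. All 3 kinds of cells were grown in medium with fetal bovine serum, LIF, the GSK3 inhibitor CHIR99021 and the MEK inhibitor PD0325901. The labels do not say how the knockouts were made, whether each is 1 clone, what the control cells carry, or whether the 2 libraries of a group came from separate cultures. The p-values below therefore reflect the spread among libraries, which may be technical. The study asked how transcription differs between control and knockout cells, using mNET-seq, in which RNA held by RNA polymerase II is recovered from nuclease-digested chromatin and sequenced. The measure was a log2 escaping index per transcript, a ratio of signal within the transcript. It is not an abundance of RNA or of polymerase.

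Pou5f1 (Oct4), Sox2 and Nanog form the core of the pluripotency network, and bind together at enhancers of many genes active in stem cells. The Klf factors, Esrrb, Tfcp2l1, Tbx3 and Zfp42 (Rex1) mark or sustain the naive state. LIF acts through STAT3, and the GSK3 and MEK inhibitors relieve repression of several of these factors and block differentiation signals. Promoter-proximal pausing, in which polymerase stops shortly after the start before it enters the gene body, is a step at which many stem cell genes are regulated.

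Between replicates, Pearson's r over transcripts was 0.978 in KO1, 0.979 in KO2 and 0.978 in control. The median index over all transcripts was 3.02 and 3.01 in KO1, 2.90 and 2.91 in KO2, and 3.23 and 3.24 in control. Read depth is unknown. The targeted gene could check the labels only in part, since the index is a ratio. Mettl3-201, which begins at the outermost start, had an index of 2.44 and 2.42 in KO1, 2.10 and 2.30 in KO2, and 2.69 and 2.46 in control, so transcription signal over Mettl3 was still recorded in both knockouts. Its difference was -0.14 ± 0.19 (SE) in KO1 and -0.37 ± 0.19 in KO2 and was not past the threshold in either (limma adjusted p = 0.682 and 0.241).

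The promoters of Klf4, Tfcp2l1 and Zfp42 are shown because the first pair belong to genes whose index fell and the last to a gene that stayed within a narrow range in every library. The 250 bases before the RefSeq start of Klf4 (chr4:55532476-55532725, minus strand, GRCm38.p6), Tfcp2l1 (chr1:118627695-118627944, plus strand) and Zfp42 (chr8:43307010-43307259, minus strand) read as follows, 5′ to 3′, with capitals marking GGGCGG on either strand, TATAAA on either strand, and ATTTGCAT on either strand.
Klf4: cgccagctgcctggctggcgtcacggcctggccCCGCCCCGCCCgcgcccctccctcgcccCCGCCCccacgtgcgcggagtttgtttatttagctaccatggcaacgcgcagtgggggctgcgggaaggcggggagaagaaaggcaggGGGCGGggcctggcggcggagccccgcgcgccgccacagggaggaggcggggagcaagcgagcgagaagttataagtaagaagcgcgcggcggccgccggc
Tfcp2l1: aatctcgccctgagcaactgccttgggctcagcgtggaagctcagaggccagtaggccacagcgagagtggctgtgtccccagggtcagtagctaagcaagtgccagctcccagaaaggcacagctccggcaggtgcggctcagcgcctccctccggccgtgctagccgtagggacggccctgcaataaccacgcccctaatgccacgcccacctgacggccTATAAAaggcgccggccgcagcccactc
Zfp42: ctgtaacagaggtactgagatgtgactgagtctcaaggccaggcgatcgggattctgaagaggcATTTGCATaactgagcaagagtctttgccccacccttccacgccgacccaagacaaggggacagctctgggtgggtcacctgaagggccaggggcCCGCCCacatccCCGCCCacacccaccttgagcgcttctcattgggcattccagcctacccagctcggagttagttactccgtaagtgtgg
The Klf4 sequence held 4 matches to GGGCGG, the GC box that Sp and Klf factors bind, at positions -217, -212, -189 and -101 from the RefSeq start, and the first 2 of these overlap by a single base. Zfp42 held 2 GC boxes, at -91 and -79, and 1 match to ATTTGCAT, the octamer that Pou factors bind, at -186. Tfcp2l1 held no GC box and 1 match to TATAAA, the TATA box, at -28. Of 32851 RefSeq promoters of 300 bases each, from 250 before the start to 50 after it, 35.7% held GGGCGG, 13.6% TATAAA and 1.74% ATTTGCAT. These 3 promoters also differed in base composition. The 250 bases were 74% G or C with 32 CpG in Klf4, 65.2% with 16 CpG in Tfcp2l1 and 58.4% with 9 CpG in Zfp42, beside medians of 52.4% and 6 over all promoters. The 3 promoters were picked by their index values, and a link of sequence to index was not tested. Sox2 held 72% G or C with 27 CpG and Klf2 71.2% with 29 CpG, each with 2 GC boxes. Neither of these genes was called. At their outermost RefSeq starts, Pou5f1 held 62% with 8 CpG, Nanog 52% with 3 and Esrrb 60.8% with 6. A match is a run of letters, not a bound site. In all, 8 of the 10 genes had a RefSeq promoter here, and Klf5 and Tbx3 had none.

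The level of the index had first to be read against length, because it rises with the genomic length of a transcript. Over all transcripts, which do not count as replicates, Pearson's r with log10 length was 0.804 and Spearman's rho was 0.812. Each transcript was therefore set against all transcripts of other genes within 10% of its length. In control cells, 18 of the 19 outer-start transcripts lay above the median of transcripts of similar length, with differences from -1.89 to 3.67 and a median of 1.68 on the log2 scale. Over all 38690 outer-start transcripts, 61.8% lay above and the median difference was 0.41. Of the 10 internal-start transcripts 6 lay above, with a range from -5.01 to 1.42, beside 34.3% of all 28254 internal-start transcripts. The highest position belonged to Tbx3, a T-box factor that sustains self-renewal. Its transcripts Tbx3-202, Tbx3-206 and Tbx3-203 lay 3.67, 3.29 and 3.11 above the median for their length. They were followed by Klf4-201 at 2.61, Klf4-203 at 2.34 and the 3 Nanog transcripts at 2.00 to 1.68, with Klf5-202 at 1.87 and Tbx3-201 at 1.68 among them. Tfcp2l1-202 at 1.57, Klf2-201 at 1.22, Tfcp2l1-201 at 1.13 and Zfp42 at 1.07 to 1.03 came next, in close steps.

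Pou5f1-201 lay 0.86 above the median for its length and Klf5-201 0.26 above. Sox2-201 was the single outer-start transcript below it, by 1.89. That median mixes both start classes. Against outer-start transcripts of similar length alone, Klf5-201 also lay below the median, with a control mean of 4.23 beside 4.34. Pou5f1-201 stayed above it, at 2.84 beside 2.47, and Sox2-201 below it, at -1.39 beside 0.99. Sox2 is a gene of 1 exon that lies wholly inside the long noncoding gene Sox2ot on the same strand (2057 shared bases), so signal over it could belong to either. Its RefSeq start also lies 410 bases upstream of the GENCODE start, so the annotated start of the transcript may not be where polymerase begins. What part these have in the low value was not tested.

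**Figure D1:**
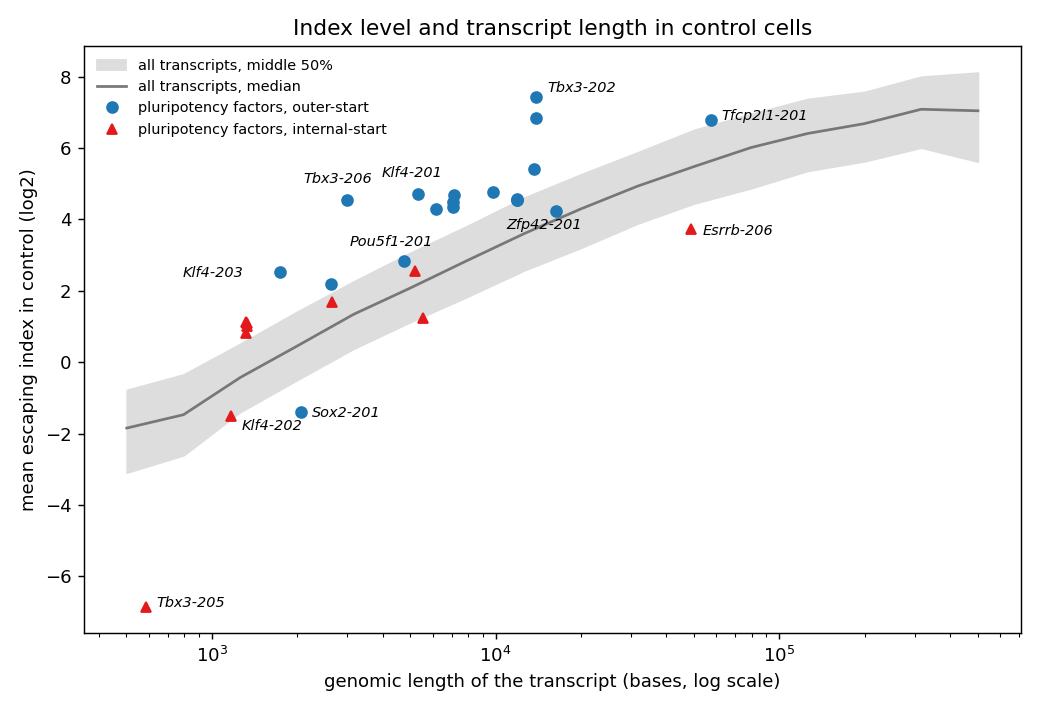
Mean escaping index in control cells (log2, vertical axis) against genomic length of the transcript (bases, log scale), for the outer-start (circles) and internal-start (triangles) pluripotency factor transcripts; the line and band give the median and the middle 50% of all transcripts by length. Tbx3-202 lies 3.67 above the median of transcripts of similar length and Sox2-201 lies 1.89 below it.

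Klf4 had the most negative changes of the 10 genes. The index of Klf4, a Krüppel-like factor that LIF and STAT3 induce, fell in KO2 in both transcripts that begin at its promoter. Tfcp2l1, a CP2-family factor downstream of the same signal, had similar negative changes in KO2 in both of its 2 transcripts, and 1 of them passed the threshold. In KO2, 3 of the 29 transcripts passed the threshold (limma, Benjamini-Hochberg adjusted p under 0.05 over 67020 distinct transcript rows), all of them lower, where 9.79% of all transcripts did (9.41% lower). All 3 were among the 19 outer-start transcripts, where 13.7% of all outer-start transcripts passed, and none of the 10 internal-start ones did, where 4.45% of all passed. In KO1, 0 of the 29 passed, where 0.0% of all transcripts did. Without adjustment p was under 0.05 for 3 of the 29 in KO1, and for 16120 of the 67020. With both knockouts averaged, 2 of the 29 passed, where 8.5% did (8.16% lower), both of them outer-start, where 11.8% of the class passed and 3.97% of the internal-start class. The share of members called is thus near that of all transcripts, in KO2 and in the average.

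Klf4-201 had an index of 3.81 and 3.89 in KO1, 3.81 and 3.90 in KO2, and 4.79 and 4.65 in control. All 4 knockout libraries lay close together and below both controls, an order that 31.3% of all transcripts and 42.3% of all outer-start transcripts had. On the linear scale these were ratios of 14.0 and 14.8 in KO1, 14.0 and 14.9 in KO2, and 27.7 and 25.1 in control. The index fell by 45.2% in KO2 (log2 change -0.87 ± 0.16 SE, adjusted p = 0.0394). The KO1 difference was of the same size, at -0.87 ± 0.16, and did not pass (adjusted p = 0.0765). Averaged over the knockouts the change was -0.87 ± 0.14 (adjusted p = 0.0359).

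Klf4-203 starts 13 bases downstream and ends inside the gene. Its index was 1.89 and 1.94 in KO1, 1.48 and 1.50 in KO2, and 2.67 and 2.40 in control. The 3 groups did not overlap, with KO2 lowest. Of all outer-start transcripts, 42.3% had all knockout libraries below both controls and 39.5% had KO2 below KO1. The share with both was not counted. The change of Klf4-203 was -1.05 ± 0.19 in KO2 (adjusted p = 0.0376) and -0.62 ± 0.19 in KO1 (adjusted p = 0.134). These 2 transcripts share their promoter, so they are not independent observations. Klf4-202 begins 696 bases downstream, in intron 1 of Klf4-201. It had values of -1.11 and -1.52 in KO1, -1.25 and -1.41 in KO2, and -1.49 and -1.50 in control, a difference of 0.18 ± 0.23 in KO1 and 0.17 ± 0.23 in KO2. No other annotated gene overlaps Klf4 (chr4:55527143-55532466, minus strand, mm10).

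The 2 Tfcp2l1 transcripts begin at neighbouring bases and end 47402 bases apart. Tfcp2l1-202 is annotated as a processed transcript, and Tfcp2l1-201 as protein-coding. Tfcp2l1-202 had 4.43 and 4.41 in KO1, 4.09 and 4.00 in KO2, and 4.80 and 4.75 in control. It fell by 39.6% in KO2 (log2 change -0.73 ± 0.16, adjusted p = 0.0466). Its KO1 difference was -0.35 ± 0.16 (adjusted p = 0.237). Both libraries of KO2 lay below both of KO1, and those below both controls, in a stepwise order. The parts of this order are common. Of all outer-start transcripts, 50.9% had KO1 below control and 39.5% had KO2 below KO1. The share with the whole order was not counted. Tfcp2l1-201, the full-length transcript, had 6.54 and 6.53 in KO1, 6.10 and 6.03 in KO2, and 6.76 and 6.78 in control. It showed the same order, with differences of -0.71 ± 0.16 in KO2 (adjusted p = 0.0519) and -0.24 ± 0.16 in KO1, neither past the threshold. A ribosomal RNA gene, a small nuclear RNA gene and a pseudogene are annotated within Tfcp2l1 (chr1:118627945-118685168), in stretches of 117 to 314 bases.

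**Figure D2:**
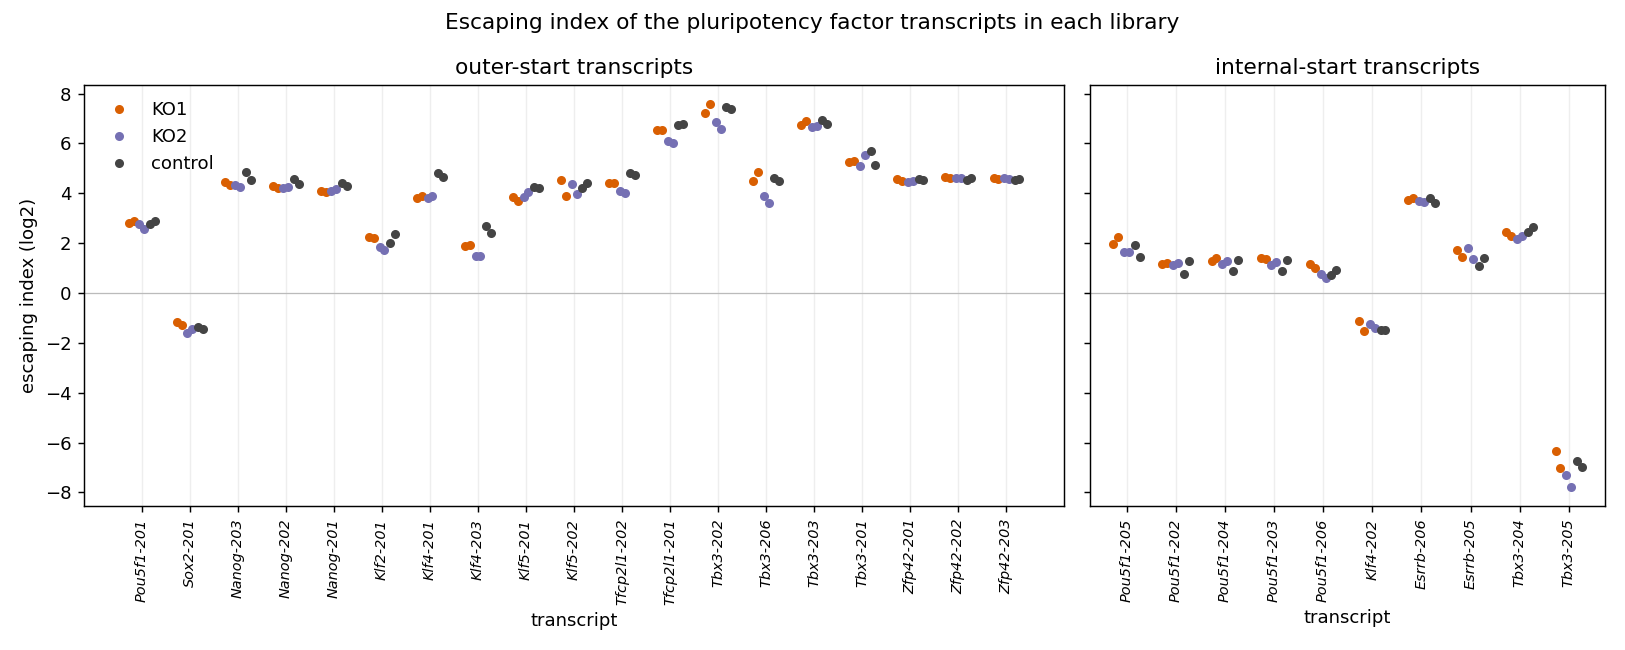
Escaping index (log2, vertical axis) of the 19 outer-start (left) and 10 internal-start (right) transcripts, 1 point per library, with KO1, KO2 and control from left to right within each transcript. The 4 knockout points of Klf4-201 lie between 3.81 and 3.90, below the control points at 4.79 and 4.65, while all points of the 3 Zfp42 transcripts lie between 4.45 and 4.67.

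No call was kept with any 1 of the 6 libraries left out, in the members or in the whole table. Such a fit leaves 1 group with a single library. The loss was common to the whole table and not particular to these members, and its cause was not tested. In those fits the KO2 change of Klf4-201 lay between -0.94 and -0.79. The 3 calls in KO2 were also absent after each library was centred on its median, after quantile normalization, and with KO2 and control fitted alone. The whole table held 0 calls in KO2 under each of these as well. Both Klf4 transcripts and Tfcp2l1-202 kept a negative change in KO2 in every setting that held them.

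No transcript of Tbx3 (chr5:119670669-119684724) passed the threshold, and the KO2 values differed between its starts. Tbx3-202 had 7.24 and 7.58 in KO1, 6.85 and 6.58 in KO2, and 7.46 and 7.37 in control. Tbx3-206, a retained-intron model with the same start, had 4.50 and 4.87 in KO1, 3.88 and 3.60 in KO2, and 4.61 and 4.49 in control. In both, the KO2 libraries lay below all 4 others, while KO1 overlapped control. Of all outer-start transcripts, 63.0% had KO2 below control and 39.5% had KO2 below KO1. The KO2 differences of Tbx3-202 and Tbx3-206 were -0.70 ± 0.21 and -0.81 ± 0.21, which did not pass the threshold (adjusted p = 0.0893 and 0.0641). The KO1 differences of these transcripts were -0.01 and 0.13. Tbx3-203, which starts 193 bases downstream in exon 1 of Tbx3-202, differed by -0.17 ± 0.18 in KO2, and Tbx3-201, which starts 349 bases downstream in the same exon, by -0.10 ± 0.26.

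The difference between Tbx3-202 and Tbx3-203 in the same library shows the contrast directly. It was 0.48 and 0.67 in KO1, 0.19 and -0.13 in KO2, and 0.53 and 0.60 in control. Between Tbx3-202 and Tbx3-201 it was 2.00 and 2.29 in KO1, 1.77 and 1.03 in KO2, and 1.78 and 2.22 in control. The KO2 libraries were the lowest in each pair, although in the second pair 1 of them lay next to a control library. These pairs were chosen after their values were seen and were not tested. In each pair the ends also differ, by 163 bases, so the pairs do not isolate the start. An antisense gene, Tbx3os1, covers the first 697 bases of Tbx3 and all 4 outer starts. Whether strand was used in counting is not given in the sources used here, so its reads cannot be told apart from those of Tbx3. Among the internal Tbx3 transcripts, Tbx3-204 differed by -0.34 ± 0.19 in KO2. Tbx3-205, a model of 584 bases, had values from -7.77 to -6.34 in all libraries, close to the lowest values of the table.

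**Figure D3:**
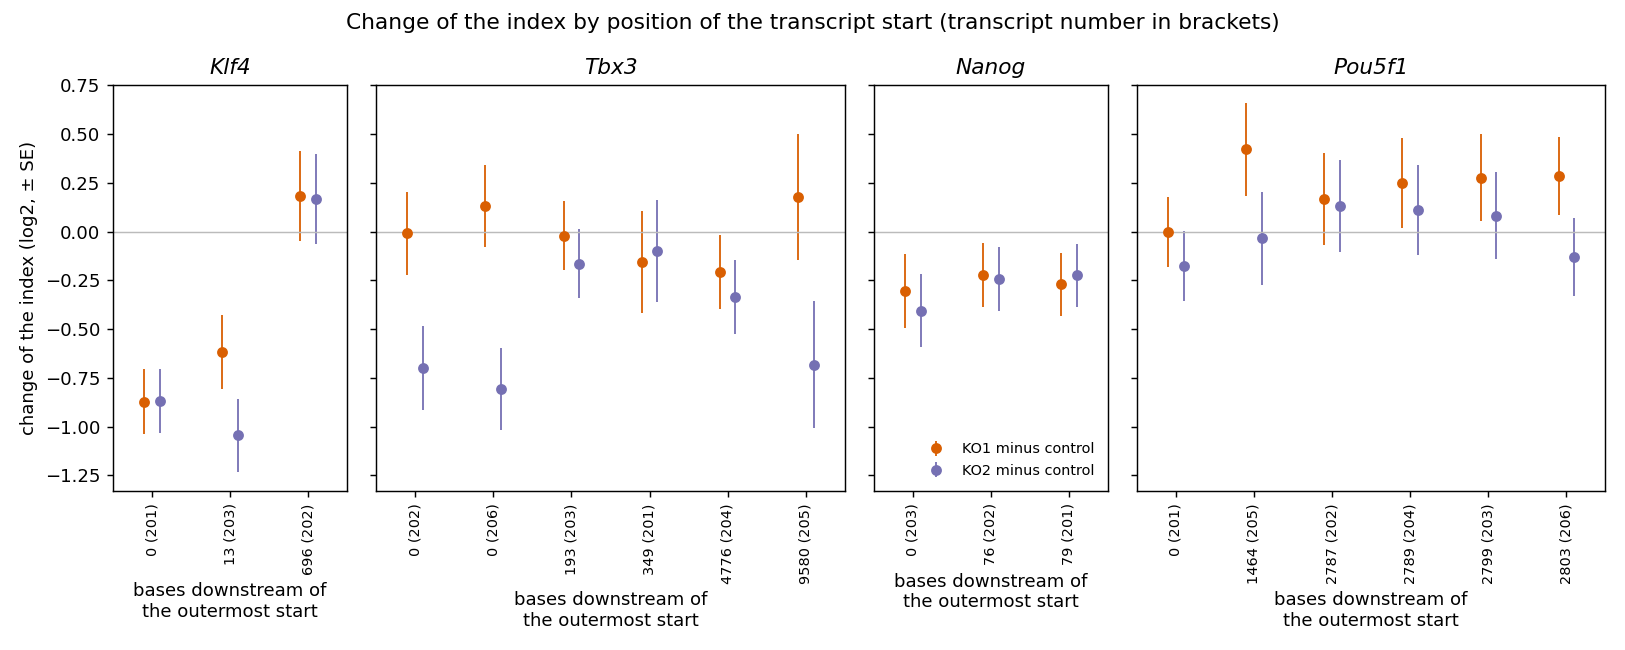
Change of the escaping index (log2, limma estimate ± SE) for KO1 and KO2 against control, by the distance of each transcript's start from the outermost annotated start, for Klf4, Tbx3, Nanog and Pou5f1. In KO2, Tbx3-202 and Tbx3-206 at the outermost start stand at -0.70 and -0.81, and Tbx3-203 and Tbx3-201, which start 193 and 349 bases downstream, at -0.17 and -0.10.

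Among the core factors, Nanog, the homeobox factor that protects the naive state, had the same order in each of its 3 outer-start transcripts (chr6:122707489-122714633). Nanog-203 had 4.45 and 4.31 in KO1, 4.33 and 4.23 in KO2, and 4.85 and 4.53 in control. Nanog-202 and Nanog-201, which start 76 and 79 bases downstream, had 4.04 to 4.29 in the 4 knockout libraries and 4.28 to 4.57 in control. Every knockout library lay below both controls in each transcript, an order that 42.3% of all outer-start transcripts showed. The differences, -0.31 ± 0.19 in KO1 and -0.41 ± 0.19 in KO2 for Nanog-203, did not pass the threshold (adjusted p = 0.371 and 0.203). Those of Nanog-202 and Nanog-201 lay between -0.27 and -0.22 in both knockouts. The pseudogenes Nanog-ps1, Nanog-ps2 and Zfp42-ps1 are annotated elsewhere in the genome, and reads shared with them could have been placed in either copy. Copies of the other members are not listed here.

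Pou5f1 encodes the POU-domain factor Oct4, and lies at chr17:35506018-35510772. Pou5f1-201 had 2.80 and 2.87 in KO1, 2.77 and 2.56 in KO2, and 2.78 and 2.90 in control. The KO1 libraries lay between the controls, with a difference of -0.00 ± 0.18, and the KO2 difference was -0.18 ± 0.18. The other 5 Pou5f1 transcripts start within intron 1 of Pou5f1-201, 1464 to 2803 bases downstream. Their KO1 differences were 0.17 to 0.42 and their KO2 differences -0.13 to 0.13, none past the threshold. Of these 5, 4 start 2787 to 2803 bases downstream and end at the same base, so they are near copies of 1 measurement. An antisense gene, Gm19553, overlaps 1475 bases of Pou5f1.

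Sox2, the HMG-box partner of Pou5f1, lies at chr3:34650405-34652461. Sox2-201 had -1.18 and -1.27 in KO1, -1.61 and -1.46 in KO2, and -1.35 and -1.43 in control. The control libraries lay between those of KO1 and KO2, a pattern with KO1 above and KO2 below that 2.55% of all transcripts and 2.81% of the outer-start ones had. The differences were 0.17 ± 0.20 in KO1 and -0.14 ± 0.20 in KO2, and neither passed the threshold (limma adjusted p = 0.649 and 0.676). The opposite directions depend on the scaling, since median centring of the libraries gave 0.39 in KO1 and 0.19 in KO2, and quantile normalization 0.24 and 0.03.

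The other Klf factors and the naive markers did not pass the threshold. Klf2, which acts beside Klf4 and Klf5 in self-renewal, had 2.25 and 2.22 in KO1, 1.84 and 1.73 in KO2, and 1.98 and 2.38 in control. Its KO2 libraries were the lowest, with a difference of -0.40 ± 0.21 (adjusted p = 0.253), while KO1 lay inside the control range. Of all outer-start transcripts, 63.0% had KO2 below control and 39.5% had KO2 below KO1. Klf5-201 had 3.85 and 3.70 in KO1, 3.85 and 4.04 in KO2, and 4.24 and 4.21 in control. All 4 knockout libraries lay below both controls, as in 42.3% of all outer-start transcripts. The differences were -0.45 ± 0.17 in KO1 and -0.28 ± 0.17 in KO2 (adjusted p = 0.189 and 0.320). Klf5-202, which starts 463 bases downstream, had replicates as far apart as 4.53 and 3.87 in KO1, and 4.36 and 3.97 in KO2, beside 4.20 and 4.39 in control. Its differences were -0.09 ± 0.28 in KO1 and -0.13 ± 0.28 in KO2.

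Zfp42, the zinc finger gene widely used as a marker of naive cells, varied least between libraries (chr8:43295063-43306980). Its 3 transcripts had values from 4.45 to 4.67 over all 6 libraries, and differences from control of -0.08 to 0.05. Zfp42-203 shows the pattern, with 4.61 and 4.58 in KO1, 4.60 and 4.57 in KO2, and 4.51 and 4.57 in control. Esrrb, an orphan nuclear receptor, could be followed only from starts 109000 and 143292 bases inside the gene. Esrrb-206 had 3.72 and 3.81 in KO1, 3.70 and 3.65 in KO2, and 3.81 and 3.63 in control, and the control values spanned those of the knockouts except for 1 KO1 library. Esrrb-205 differed by 0.35 ± 0.24 in KO1 and 0.34 ± 0.24 in KO2, neither past the threshold.

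The members can be summarised by start. The 19 outer-start transcripts had a median change of -0.09 in KO1, -0.24 in KO2 and -0.23 for both averaged, which turned to 0.12, 0.09 and 0.04 under median centring of the libraries. Over all outer-start transcripts the medians were -0.32, -0.50 and -0.40. Both KO2 libraries lay below both controls in 15 of the 19, where 63.0% of all outer-start transcripts and 48.6% of all transcripts did. Both KO1 libraries did so in 8 of the 19, where 50.9% of all outer-start transcripts and 40.9% of all transcripts did. The 10 internal-start transcripts had medians of 0.21 in KO1, 0.02 in KO2 and 0.16 for both averaged, which became 0.43, 0.35 and 0.43 under median centring, and in KO2 and the average turned to -0.13 and -0.04 without control replicate 1. Over all internal-start transcripts the medians were -0.03, -0.06 and -0.04. In 4 of these 10 the KO1 libraries exceeded the 2 controls without overlap, where 21.7% of all internal-start transcripts and 14.7% of all transcripts did. They were Pou5f1-203, Pou5f1-205, Pou5f1-206 and Esrrb-205. Overlapping Pou5f1 models make up much of this class, so its count and medians do not rest on independent observations. The same holds for the outer-start class, whose 19 transcripts come from 9 genes.

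Set against transcripts of the same start class and within 10% of their length, most outer-start members changed by less in the negative direction. In KO2, 13 of the 19 had a change above the class median, which ranged from -0.56 to -0.40 between lengths, and 6 had one below it. In KO1, 15 were above and 4 below. The 6 below in KO2 were both Klf4 transcripts, both Tfcp2l1 transcripts, Tbx3-202 and Tbx3-206. Klf4-203 came lowest, as 15.9% of similar outer-start transcripts had a change as low or lower in KO2, and for Klf4-201 the share was 19.3%. In KO1 the shares were 22.3% and 13.6%. For Tfcp2l1-202 the share in KO2 was 31.1%. The highest were Zfp42-203 and Zfp42-202, at 86.1% and 86.0%. So the changes called in Klf4 and Tfcp2l1 were within the range that many transcripts of their kind showed. The 19 transcripts belong to 9 genes and those of a gene overlap, so these counts do not rest on independent observations. This comparison was chosen after the values were seen and is a description without a test.

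**Figure D4:**
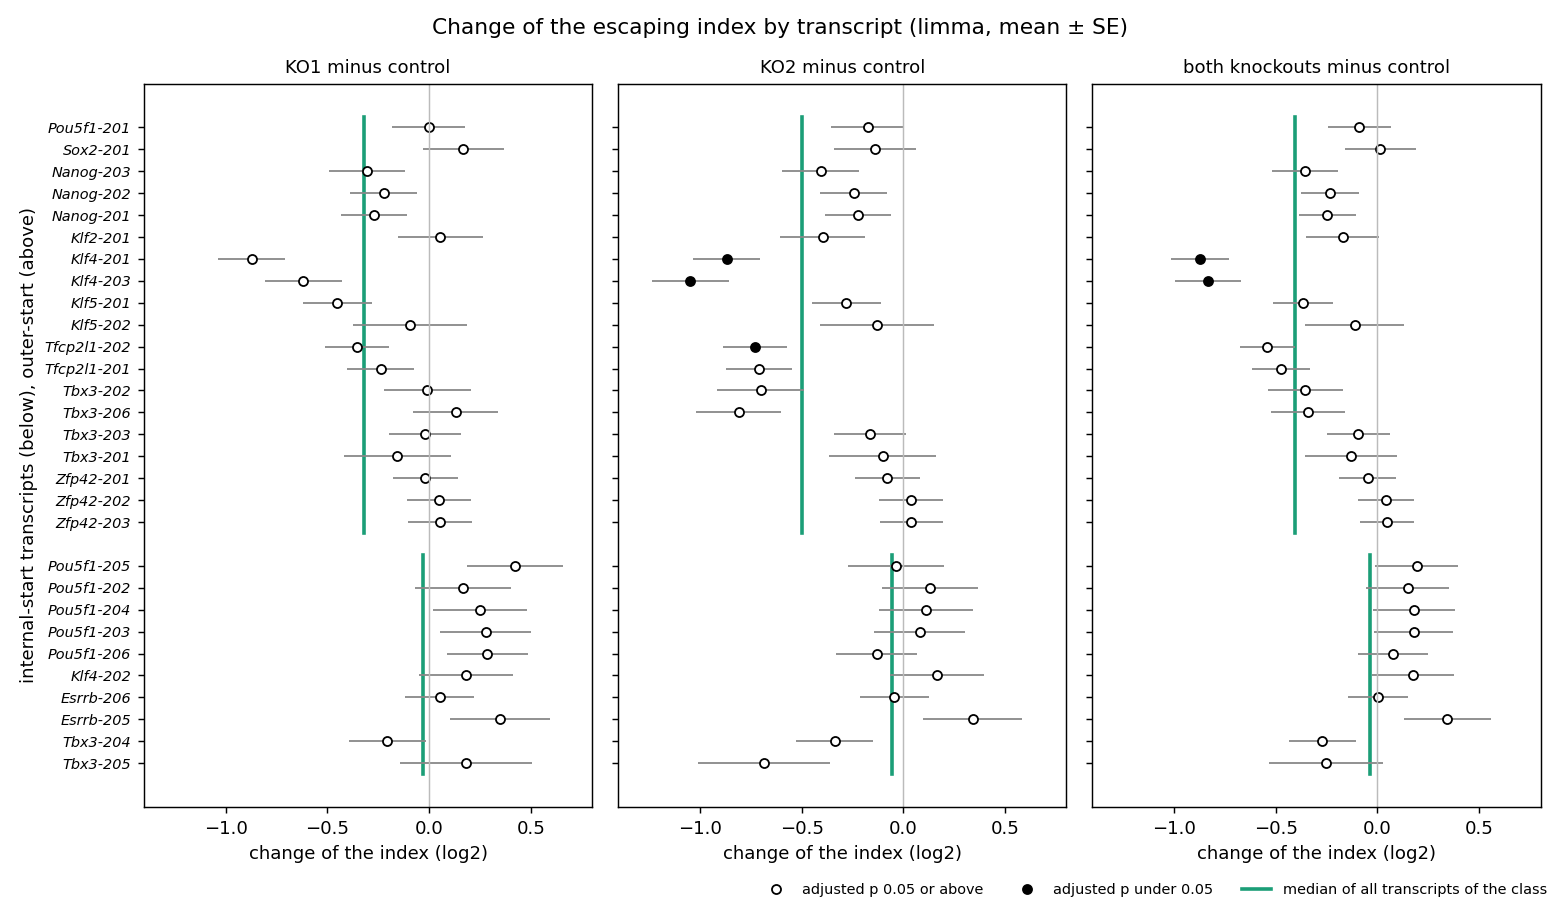
Change of the escaping index (log2, limma estimate ± SE, horizontal axis) of each transcript in KO1, KO2 and the average of both, against control, with filled points for adjusted p under 0.05 and the green line at the median of all transcripts of the start class. Filled points are Klf4-201, Klf4-203 and Tfcp2l1-202 in KO2, and the 2 Klf4 transcripts in the average; the Zfp42 points lie at or near 0, to the right of the green line.

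KO2 was also set against KO1. None of the 29 transcripts passed the threshold, where 0.0% of all transcripts did (limma, with 0.188 as the lowest adjusted p), and 4 of the 29 had an unadjusted p under 0.05, with 10936 of the 67020. The largest difference was in Tbx3-206, at -0.94 ± 0.21 (adjusted p = 0.194), followed by -0.86 ± 0.32 in Tbx3-205 and -0.69 ± 0.21 in Tbx3-202 (adjusted p = 0.282 and 0.235). Tfcp2l1-201 and Tfcp2l1-202 differed by -0.47 ± 0.16 and -0.37 ± 0.16. Klf4-201 differed by 0.00 ± 0.16. The KO2 libraries lay below the KO1 libraries in 9 of the 19 outer-start transcripts, where 39.5% of the class did. They did so in 6 of the 10 internal-start ones, 4 of them from Pou5f1, where 25.3% of the class and 33.5% of all transcripts did. The 2 comparisons with control share the control libraries, and their values are given side by side for that reason.

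Other genes of the network were followed by 1 outer-start value per gene, fitted over 15956 genes, where 17.7% were called in KO2 (17.3% lower), 14.8% with both averaged (14.3% lower) and 0.0% in KO1. In the LIF and STAT3 branch, 4 of 5 genes had an outer-start value and 1 was called, Stat3, the transcription factor that LIF activates. Stat3 had 5.86 and 6.05 in KO1, 5.49 and 5.81 in KO2, and 6.60 and 6.47 in control. It fell in KO2 (log2 change -0.88 ± 0.19, limma adjusted p = 0.0383) and in the average (-0.73 ± 0.16, adjusted p = 0.0431). The median of these 4 genes was -0.14 in KO1, -0.56 in KO2 and -0.27 for both averaged, with 3 of the 4 below zero each time. The others were not called and did not share a direction, with Socs3, a feedback inhibitor of the pathway, at 0.66 in KO2 and Il6st, the receptor subunit gp130, at 0.29 in KO1 and -0.64 in KO2. Among 24 other pluripotency genes 20 had an outer-start value, and 1 was called in KO2 and in the average. That gene was Dppa2, a chromatin-binding factor of early embryos, with 3.52 and 3.70 in KO1, 3.44 and 3.37 in KO2, and 4.08 and 4.08 in control. Its change was -0.67 ± 0.16 in KO2 (adjusted p = 0.0437) and -0.57 ± 0.14 in the average (adjusted p = 0.0478). The median change of the 20 genes was -0.15 in KO1, -0.44 in KO2 and -0.20 for both averaged, beside -0.30, -0.48 and -0.38 over all genes.

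By the same fit, Klf4 was called in KO2 and in the average, at -0.96 ± 0.17 and -0.85 ± 0.14 (adjusted p = 0.0307 and 0.0307), and Tfcp2l1 in KO2, at -0.72 ± 0.14 (adjusted p = 0.0354). Of the markers of primed and early lineage cells, 2 of 10 had an outer-start value. Dnmt3b, a DNA methyltransferase that rises as cells leave the naive state, had 4.35 and 4.88 in KO1, 3.65 and 3.33 in KO2, and 5.92 and 5.00 in control, a change in KO2 of -1.97 ± 0.36 (adjusted p = 0.0314), and of -1.41 ± 0.31 in the average (adjusted p = 0.0428). Lef1 differed by 1.02 ± 0.24 in KO1 and was not called. Of 8 fibroblast markers, which feeder cells would carry, 4 had a value, 2 of them below zero in the average. Thy1 was called in the average, at -0.81 ± 0.17 (adjusted p = 0.0381). The other 3 were not called, with Vim at -0.44, Col1a1 at 0.30 and Fn1 at 0.05 in the average. The index gives no amount of these genes, so a share of other cells cannot be read from it, and their part in the values of the pluripotency factors was not tested.

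For each core factor, the genes with the most similar outer-start index were found by the Euclidean distance over the 6 libraries, on the log2 scale. Nearest to Pou5f1 were Madcam1 and Lta4h, at distances of 0.235 and 0.236. Nearest to Nanog were Zfp346 and Aldh18a1, at 0.167 and 0.173. Nearest to Sox2 were Gm45221 and Gm10052, at 0.386 and 0.435. Within a distance of 1 lay 868 of 15955 other genes for Pou5f1, 1051 for Nanog and 78 for Sox2, so Sox2 has the fewest neighbours of the 3.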

How the data were processed

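The authors deposited 1 table of log2 escaping index values for 68473 transcripts in 6 mNET-seq libraries. The submitters' processing notes name featureCounts, HISAT2 2.1.0, Trimmomatic 0.38, CASAVA and build mm10. For their settings, the index windows and strand use, the entry is: not given in the sources used here. Each value is a ratio with a small offset added, on the log2 scale. Transcripts were joined by identifier to GENCODE M21 on the same build (68397 matched, 76 did not). Within a gene, 1453 rows identical in all libraries were taken once. The values were fitted as deposited, without rescaling, with limma 3.58.1 in R 4.3.3, with a variance trend and 3 groups together, two-sided, and p-values were adjusted by Benjamini-Hochberg over 67020 rows. Residual degrees of freedom were 3 and prior degrees of freedom 2.71. Descriptions used Python 3.11.15 with pandas 2.3.3. Every transcript of the 10 genes is accounted for, and other genes are named where they passed in their list. The members, lists and tests were chosen with earlier results of these data known.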

Additional observations from a re-analysis of the deposited data

Results flagged for a closer look

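Sox2-201 had opposite signs in the knockouts on the deposited scale. Both KO1 libraries lay above both controls and both KO2 libraries lay below them, a pattern seen in 2.55% of all transcripts. The differences from control were 0.17 ± 0.20 (SE) in KO1 and -0.14 ± 0.20 in KO2, and neither passed limma's test (adjusted p = 0.649 and 0.676). Both were positive once the libraries were rescaled, at 0.39 and 0.19 under median centring and 0.24 and 0.03 under quantile normalization. KO2 minus KO1 was -0.31 on the log2 scale, and limma's test of that difference did not pass (adjusted p = 0.491).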

How the results depend on the processing

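Of the 29 transcripts, 3 were called in KO2 and 2 in the average of both knockouts. The KO2 count was 4 with a pseudocount of 0.5 and with a minimum mean index of 1, 2 without the variance trend, 3 with protein-coding transcripts alone, and 2 with 1 outer-start mean per gene. Over all rows these settings called 6522 of 67020, 6692 of 51430, 6214 of 67020, 6410 of 32988 and 2830 of 15956, in that order. The fit of protein-coding transcripts alone did not hold Tfcp2l1-202. Its 3 calls were both Klf4 transcripts and Tfcp2l1-201 (limma adjusted p = 0.0383). With 1 mean over all transcripts per gene the member count was 1 in KO2 and 0 in the average. Over all 17349 genes the counts were 1225 and 1038. The average count was 1 with 1 outer-start mean per gene, and 1 with the 4 knockout libraries as 1 group. Over all rows these settings called 2356 of 15956 and 2491 of 67020. Both counts were 0 after median centring and after quantile normalization, where the whole table held 0 calls; centring moved the median change of all transcripts from -0.32 to 0.01 in KO2. The KO2 count was 0 with only KO2 and control fitted, and so was that over all 67020 rows. With any 1 library left out no call was kept, in the members or in the whole table. Such a fit leaves 1 group with a single library. Replicate numbers did not pair the libraries (correlations of deviations -0.007, -0.0003 and 0.015). With a replicate block both counts were 0, and so were those over all rows. KO1 against control and KO2 against KO1 gave 0 in every setting. Over 16 settings Klf4-201 in KO2 ranged from -0.94 to -0.48 (adjusted p 0.0270 to 0.171) and Klf4-203 from -1.18 to -0.72 (0.0238 to 0.147). Tfcp2l1-202 ranged from -0.77 to -0.33 over 15 settings (0.0423 to 0.265). Tfcp2l1-201 was called in KO2 in 3 settings, with a lowest adjusted p of 0.0383. Of 1820 values of single transcripts under alternatives, 133 changed sign, 39 of them under centring and 42 under quantile normalization. The cause of the lost calls was not tested. With depth unknown, no counting error can be given.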
